A study of Macaca mulatta with 13 samples.

Results

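Cytosolic ribosomal protein genes encode the proteins of the ribosome that translates nuclear messages. They were measured here as 36 genes, 23 of the large and 13 of the small subunit, among 14132 genes named on the array. A gene was included where the platform annotation gave a probe set a single symbol made of RPL or RPS and a number, with at most an A, X or L after it, or RPLP0, RPLP1, RPLP2 or RPSA. The kinases of the RPS6K family were left out, and the brightest of a gene's probe sets, by mean log2 signal over 13 arrays, stood for the gene. The 36 genes had 61 probe sets. They covered 34 of the 80 proteins of the cytosolic ribosome, 22 of 47 in the large and 12 of 33 in the small subunit. The other 2 genes, RPL3L and RPS27L, are paralogues of subunit genes. A further 32 probe sets carried a ribosomal protein symbol together with other symbols and were not used, so that RPLP0, RPSA, RPS14 and 7 other genes were not analysed here.

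The samples were vastus lateralis, a thigh muscle, of male rhesus monkeys (Macaca mulatta). The 5 control animals ate a control diet and were 27 to 30 years old at collection, and the 8 calorie-restricted (CR) animals were 27 to 32 years old, with a restriction of 18.5 years given for the study. Each animal gave 1 biotin-labelled cRNA on a one-colour Affymetrix array, and no allele, transgene or drug is named for either group. The comparison addresses how muscle transcript levels differ after long-term restriction.

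The large subunit joins amino acids and holds the exit tunnel for the new chain, and the small subunit reads the message. Messages of most ribosomal proteins carry a pyrimidine tract at their start, through which the nutrient-sensing kinase complex mTORC1 raises their translation. Ribosome content is one of the determinants of protein synthesis in muscle, and RPL3L replaces RPL3 in part of the ribosomes of skeletal and heart muscle.

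Of 16 markers of muscle fibres, 13 had a named probe set, and all 13 passed the filter on dim signals. All 5 named adipocyte and all 8 named macrophage markers passed it too, so passing is no check of the tissue label. Control replicate 4 stood apart. Its summed signal of the 13 fibre markers was 480675, the lowest of the 13 animals (561310 to 1087080 in the other controls and 631932 to 1216730 in CR). Its sums of fibroblast markers (6 of 7 measured, 141637) and Schwann cell markers (3 of 5 measured, 14668) were the highest of all animals. Its sum for endothelium and smooth muscle (10 of 12 measured), 39560, was also the highest (13069 to 22396 in the other controls and 8312 to 29042 in CR). Of the 9 tested markers of that list 0 had a difference above 0, with a median of -0.45, and the part of this in the values below was not tested. CR replicate 2 had the highest sums of adipocyte (56037), macrophage (10683) and lymphocyte markers (1064). Control replicate 4 came next in each (49560, 7497 and 959). In whole muscle, fewer cells of a type and less RNA per cell cannot be told apart. Counts, and several gene values that moved with control replicate 4, are also given without that animal.

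No ribosomal protein gene passed the test between the diets. Of the 36 genes, 33 passed the filter, which kept the brighter 50% of probe sets, and these comprised 22 of the large and 11 of the small subunit. In limma's test of the log2 values, adjusted by Benjamini-Hochberg over 26383 probe sets, 0 of the 33 were called, against 0% of all probe sets tested. At an unadjusted p under 0.05 there were also 0 of 33 by limma and 0 by an exact rank-sum test, against 2.43% of all probe sets by limma (1.25% higher and 1.18% lower in CR). Leaving out CR replicate 2 gave 4.65% of all probe sets and 1 of the 33 genes, RPLP1, and leaving out control replicate 5 gave 3.67% and 0 genes. Control and CR animals overlapped for each of the 33, and they did not overlap for 0.072% of all probe sets. The lowest unadjusted p of limma's test was that of RPL22. Each difference below is CR minus control on the log2 scale. For each tested gene, with all 13 animals and the main settings, its adjusted p from limma was 0.999.

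Most of these probe sets were bright and varied little between animals, which bounds the differences in their signal. The residual SD between animals of one diet had a median of 0.21 over the 33 genes. It was 0.34 over the brightest 2% of probe sets and 0.45 over all probe sets tested. The half-width of the 95% interval had a median of 0.30 over the 33 genes and 0.55 over all. For 21 of the 33 genes the whole interval, before adjustment, lay between -0.5 and 0.5, which is 1.41-fold either way. For 31 it lay between -1 and 1, and the exceptions were RPL3L and RPL24. A missed threshold does not show that the diets are alike, but a 2-fold difference in signal lay outside the unadjusted interval of those 31 genes. This holds for the chosen probe sets, since other probe sets of a gene often disagreed, as given below.

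**Figure D1:**
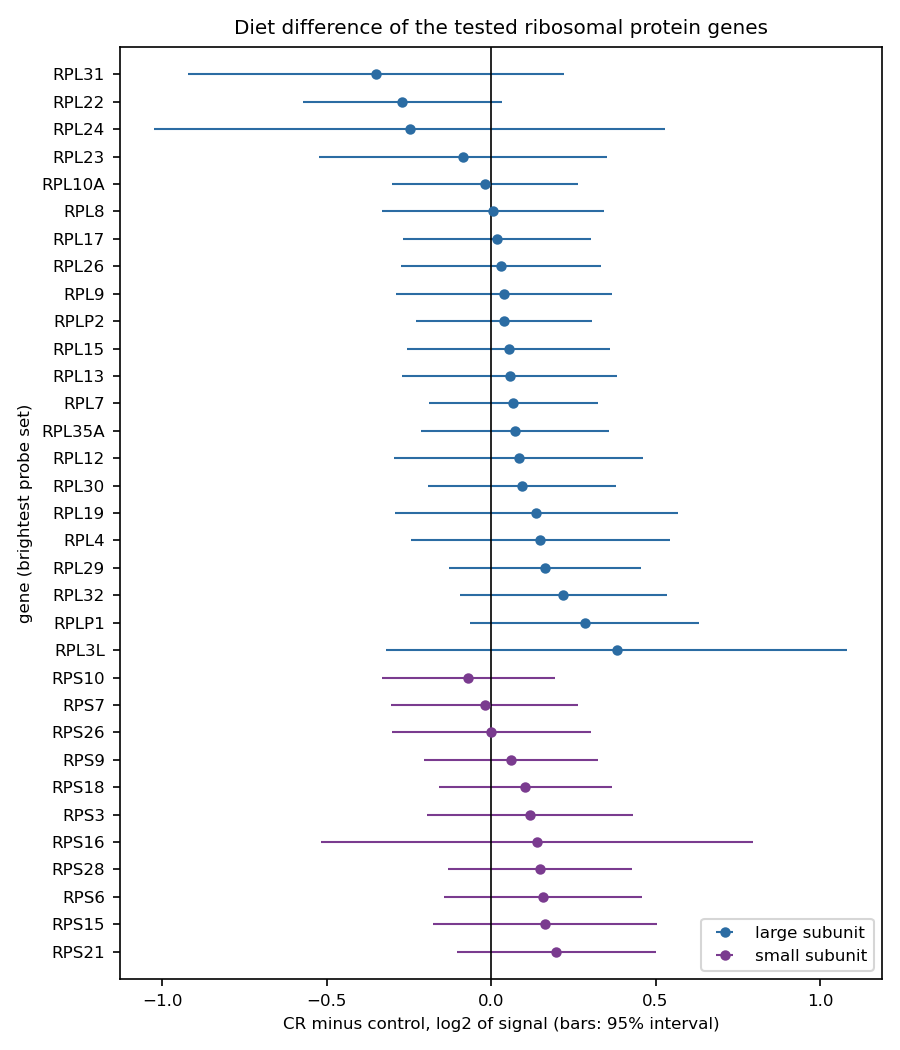
CR minus control difference of the log2 signal (x axis) for each of the 33 tested genes (y axis), with 95% intervals from limma before adjustment, large subunit in blue and small subunit in purple. All 33 intervals include 0, the points run from -0.35 for RPL31 to 0.38 for RPL3L, and the widest bars belong to RPL24, RPL3L and RPS16.

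Most of the differences lay above 0, in both subunits. The CR mean was above the control mean for 26 of the 33 genes (78.8%), 17 of 22 in the large and 9 of 11 in the small subunit, while 48.1% of all probe sets tested had a difference above 0. The genes share their arrays, so this count is a description of the 13 animals. The median difference was 0.055 in the large subunit and 0.12 in the small subunit, against -0.012 over all probe sets. Without control replicate 4 the count was 21 of 33, and the medians were 0.016 and 0.036.

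Bright probe sets of other genes lay above 0 too. Of the 33 genes, 24 were among the brightest 2% of probe sets, and 21 of these 24 had a difference above 0. Among the 1027 probe sets of that brightness that belong to no member, 748 (72.8%) had a difference above 0, with a median of 0.11, which exceeds the median of 0.070 of the 24 genes. With member probe sets included, the share at that brightness was 72.9%, and it was 58.5% without control replicate 4 and 59.8% after quantile normalization. The 9 tested genes outside the brightest 2% had 5 differences above 0. After quantile normalization, which gives every array the same distribution of signals, 16 of 33 genes (48.5%) lay above 0, 9 of 22 in the large and 7 of 11 in the small subunit. The median of the large subunit was then -0.013 and that of the small subunit 0.041. With the brightest probe set of a plain type per gene, one not marked as matching several transcripts, 17 of 27 lay above 0. The medians of these 27 were 0.029 in the large and 0.12 in the small subunit, and no gene passed under either setting.

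The subunits were compared within each array, where a scaling factor cancels. The mean log2 signal of the 22 large subunit genes minus that of the 11 small subunit genes was -0.34, -0.23, -0.00098, -0.085 and -0.13 in control replicates 1 to 5. In CR animals it ran from -0.35 to -0.064, with a median of -0.18. The groups overlapped over most of their range, and control replicate 3, at the top, and CR replicate 7, at the bottom, mark the ends. Controls averaged -0.16 ± 0.13 (SD, n = 5) and restricted animals -0.21 ± 0.10 (SD, n = 8), a difference of -0.049 that is smaller than the pooled SD of 0.11. Its sign was the same with each animal left out (-0.095 to -0.0098). It was -0.15 over all 36 genes without the filter on dim signals, and -0.0010 with a gene's probe sets averaged. The level of this value has no meaning of its own, since different probe sets bind with different strength, and only its spread between animals was compared.

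**Figure D2:**
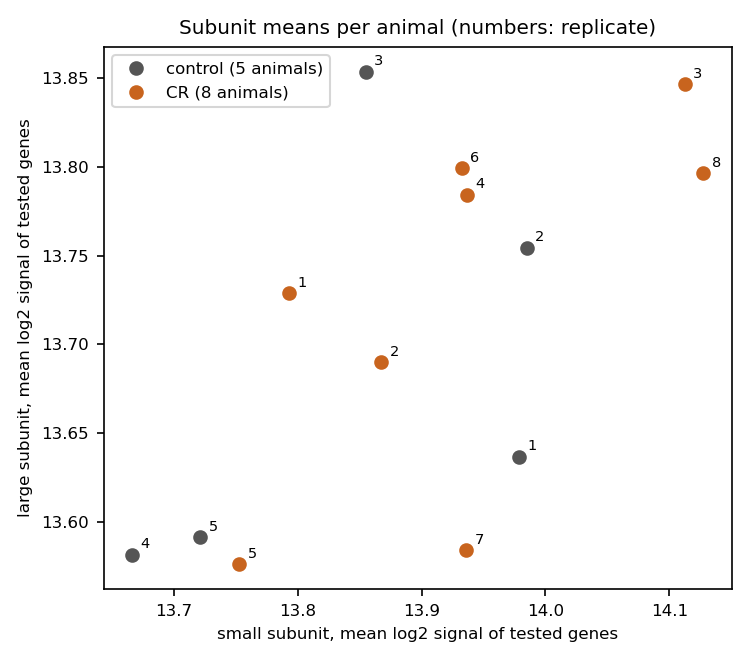
Mean log2 signal of the 22 tested large subunit genes (y axis) against that of the 11 tested small subunit genes (x axis), 1 point per animal, numbered by replicate, controls in grey and CR in orange. The diets mix along both axes, with control replicates 4 and 5 and CR replicate 5 at the low end and CR replicates 3 and 8 at the high end.

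Both subunits varied together between animals. The large subunit mean ran from 13.58 to 13.85 in controls and from 13.58 to 13.85 in CR, and the small subunit mean from 13.67 to 13.99 and from 13.75 to 14.13. Over the 13 animals the 2 means correlated with a Pearson r of 0.63 and a Spearman rho of 0.54, given as a description because they come from the same arrays. Within CR animals r was 0.67, and it was 0.45 (rho 0.28) without control replicate 4 and CR replicate 5, the animals farthest from the median of the large subunit mean. Of the 528 pairs of tested genes 396 had an r above 0. The median r was 0.22 within the large subunit, 0.46 within the small subunit and 0.32 across them. Such values were not computed for other probe sets, so whether these genes vary together more than other bright ones was not tested. The closest pairs were RPL29 with RPS6 (r = 0.95), RPS3 with RPS6 (0.93) and RPLP2 with RPS26 (0.91), 2 of which cross the subunits. Such an r holds for the chosen probe sets. Other tested probe sets of RPL29 (r = -0.58 and -0.053), RPS6 (0.20) and RPS3 (0.32) followed the chosen one of their gene weakly or ran opposite.

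**Figure D3:**
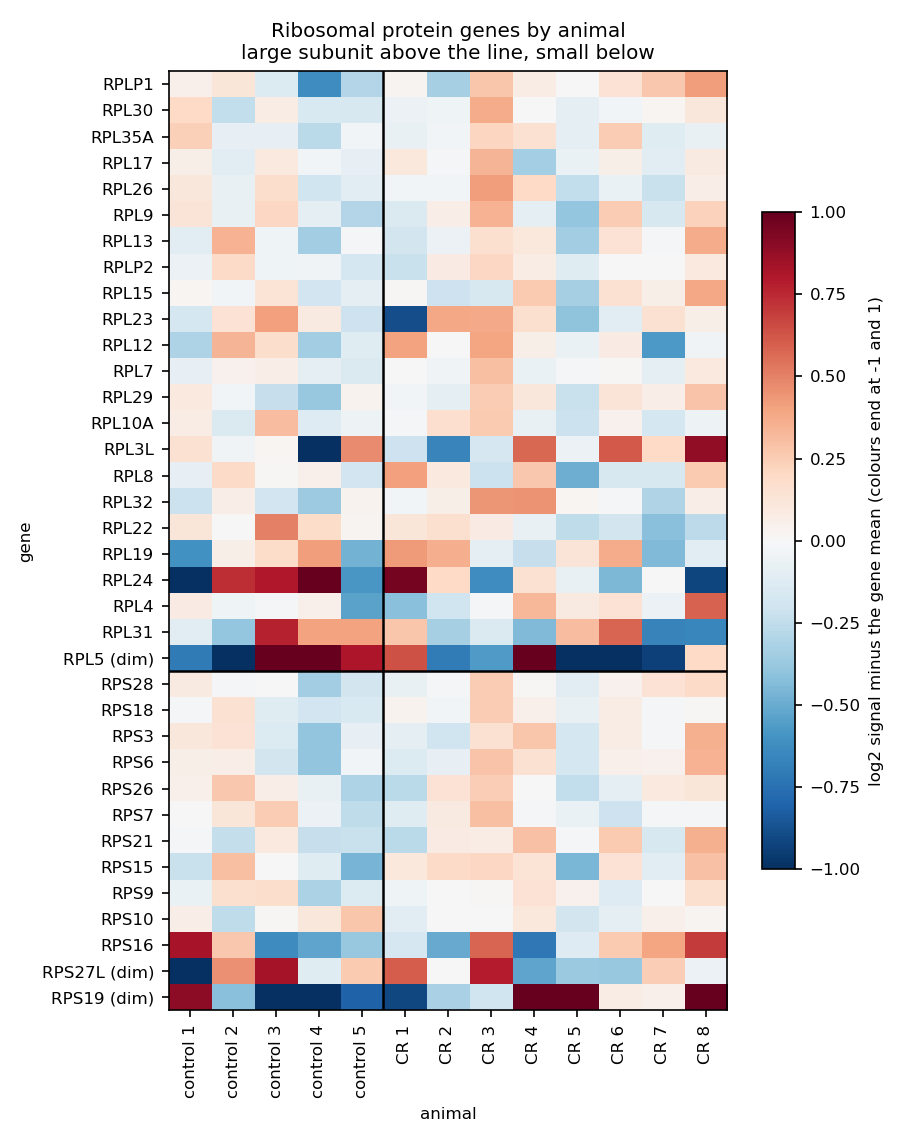
Log2 signal of each of the 36 genes minus its own mean (colour, red above and blue below, ending at -1 and 1) in each of the 13 animals (x axis), genes ordered by brightness within each subunit (y axis). Most rows are pale, CR replicate 3 is red down most of both blocks, and RPL3L, RPL24, RPS16 and the 3 dim genes have the strongest colours.

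RPL3L, the striated-muscle paralogue of RPL3, had the largest difference above 0 among the 33 tested genes and, after RPL24, the largest spread. Its log2 signal (probe set MmugDNA.18744.1.S1_at) was 13.79, 13.61, 13.66, 11.86 and 14.11 in control replicates 1 to 5. In CR animals it ran from 12.98 to 14.52, with a median of 13.71. Control replicate 4 lay far below every other animal, and the other controls lay within the CR range. The difference was 0.38 ± 0.33 (SE, 95% interval -0.32 to 1.08), and 7 of the 8 CR values exceeded the mean of the controls. Without control replicate 4 it was -0.0043. The SD over the 13 animals was 0.67 for RPL3L, against 0.11 for RPL7, 0.12 for RPS18 and 0.13 for RPLP2, the members with the smallest spread. RPL3 itself was not analysed here, so the planned comparison of the pair could not be made.

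RPL3L signals ran opposite to summed markers of several other cell types, fibroblasts and endothelium and smooth muscle among them. Pearson's r was also below 0 for macrophages (-0.67), adipocytes (-0.60) and lymphocytes (-0.54), none of these passing 0.05 after the adjustment given below. It was above 0 for red cells (0.10), satellite cells (0.57) and muscle fibres (0.60). Over the 13 animals, RPL3L correlated with the log2 summed signal of the Schwann cell markers S100B, MBP and PMP22 with a Pearson r of -0.88 (permutation p = 0.00014) and a Spearman rho of -0.71 (permutation p = 0.00869). That sum is close to the signal of 1 gene, since PMP22, which other cells also express, made up 67.8% to 91.0% of it. PMP22 alone had an r of -0.86, S100B -0.62 and MBP, a myelin protein, 0.46, and without PMP22 the sum had an r of -0.35 (permutation p = 0.246) and a rho of -0.19 (permutation p = 0.531). The relation of the sum is therefore largely that of PMP22. S100B ran the same way, though with an r of -0.040 without control replicate 4 and CR replicate 2, and MBP ran the other way. In most animals MBP gave more signal than S100B, so the sum without PMP22 is mainly that of MBP there. For the fibroblast markers COL1A1, COL1A2, COL3A1, DCN, LUM and FBN1 the r was -0.80 (permutation p = 0.00077) and the rho -0.73 (permutation p = 0.00593), and each of the 6 genes on its own had an r below 0 (-0.81 for LUM to -0.23 for COL3A1). The relations were computed for RPL3L, RPL24 and RPL22 against 9 marker lists, 27 in all, a choice made after their values were seen. Adjusted over the 27, Pearson's permutation p was 0.00378 for Schwann cells, 0.0104 for fibroblasts and 0.0288 for endothelium and smooth muscle (r = -0.75), and these 3 of 27 passed 0.05. No Spearman relation passed (adjusted permutation p = 0.101 for Schwann cells and for fibroblasts). In the list of endothelium and smooth muscle, TAGLN (r = -0.88) made up a median of 39.3% of the sum. KDR had an r of 0.22 and NOS3 of -0.25, and every gene of that list but KDR had an r below 0.

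Within the 8 CR animals alone, r was -0.87 for the Schwann cell sum and -0.73 for the fibroblast markers. Without the 2 animals farthest from the median marker sum, control replicate 4 being one of them, r was -0.72 for Schwann cells and -0.73 for fibroblasts. The Schwann sum ran from 4686 to 14668 in controls and from 4376 to 11056 in CR, and the fibroblast sum from 35548 to 141637 and from 40665 to 99105. With the 13 fibre markers RPL3L had an r of 0.60 (permutation p = 0.0283, adjusted 0.108), and 0.24 without control replicates 4 and 3. These animals had the lowest fibre sums. Leaving them out narrows the range, so the lower r does not show what the relation rests on. The 13 fibre markers differed both ways between the diets, 7 above 0 and 6 below. Their relations to RPL3L, RPL22 and RPL24 were not computed marker by marker. The part of cell composition in the RPL3L difference between diets was not tested.

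**Figure D4:**
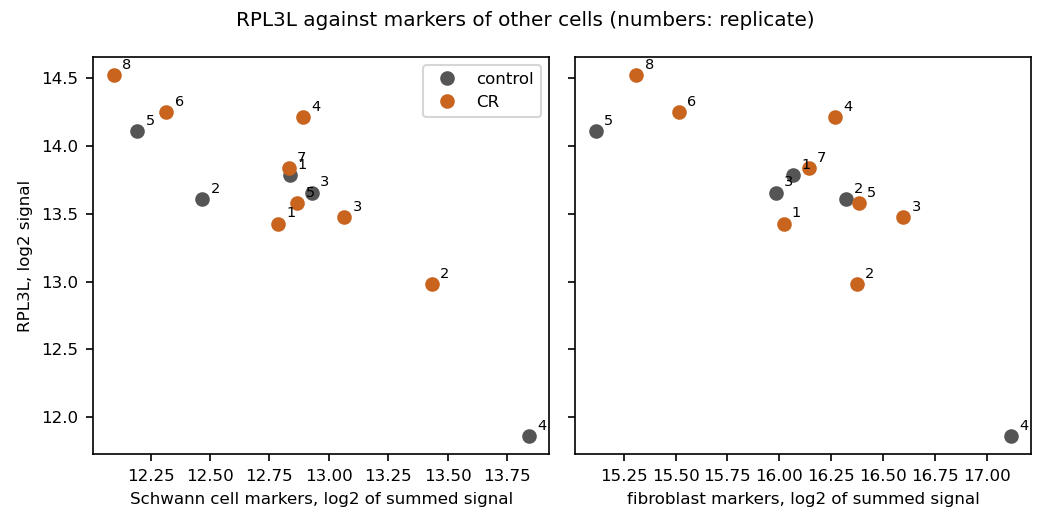
Log2 signal of RPL3L (y axis) against the log2 summed signal of Schwann cell markers (left, mostly PMP22) and fibroblast markers (right), 1 point per animal, numbered by replicate, controls in grey and CR in orange. In both panels RPL3L is lower where the marker sum is higher, with RPL3L ranging from CR replicate 8 at 14.52 to control replicate 4 at 11.86, and the diets mix along it.

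RPL22 had the lowest p of the 33 genes. It encodes an RNA-binding protein of the large subunit that cells can do without, its loss being covered by the paralogue RPL22L1. Its log2 signal was 12.15, 12.02, 12.53, 12.21 and 12.05 in control replicates 1 to 5, and it ran from 11.61 to 12.18 in CR, with a median of 11.89. All 8 CR values lay under the mean of the controls, yet 3 of them lay within the control range. The difference was -0.27 ± 0.14 (SE, 95% interval -0.57 to 0.031, unadjusted 0.0759 and adjusted p = 0.999 in limma). A second probe set of RPL22, whose signal correlated with the first with r = 0.72, differed by -0.12 ± 0.12. The difference lay between -0.31 and -0.19 with each animal left out. RPL22L1 differed by -0.068 ± 0.20. RPL22 ran opposite to the summed fibre markers with r = -0.67 (permutation p = 0.0124, adjusted 0.0837 over the 27 relations), a value of -0.46 without control replicates 4 and 3. The part of these markers in the RPL22 difference was not tested.

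RPLP1 and RPLP2 form the flexible stalk that recruits elongation factors. RPLP1 log2 signals were 15.93, 16.003, 15.74, 15.26 and 15.59 in control replicates 1 to 5, and ran from 15.55 to 16.29 in CR with a median of 15.99. Control replicate 4 was the lowest of all animals, and 7 of the 8 CR values exceeded the mean of the controls. The difference was 0.28 ± 0.16 (SE, 95% interval -0.064 to 0.63), or 1.22-fold, and 0.17 without control replicate 4. Its partner RPLP2 differed by 0.039 ± 0.13 and kept within 14.78 to 15.21 over all 13 animals.

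Of 6 tested proteins listed as lining the exit tunnel or its mouth, RPL22 among them, 4 had a difference above 0. RPL17 differed by 0.018 ± 0.13 and RPL26 by 0.031 ± 0.14. RPL4, whose protein narrows the tunnel, differed by 0.15 ± 0.19, or 0.038 without control replicate 5, its lowest animal at 8.54. RPL19 differed by 0.14 ± 0.20. RPL31 had the largest difference below 0, -0.35 ± 0.27 (SE, 95% interval -0.92 to 0.22), from a dim probe set whose log2 signal was 7.85, 7.57, 8.72, 8.36 and 8.36 in the controls. In CR animals RPL31 ran from 7.28 to 8.54, with a median of 7.72. Leaving out control replicate 3 gave a difference of -0.21, and leaving out control replicate 2 gave -0.50. RPL31 had a median r of -0.28 with the other members, where the small subunit genes RPS28 and RPS6 had 0.54 and 0.51.

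RPL24, a large subunit protein at the face between the subunits, had the widest spread, an SD of 0.73. Its log2 signal was 9.24, 11.18, 11.24, 11.43 and 9.86 in control replicates 1 to 5, and ran from 9.51 to 11.39 in CR with a median of 10.40. The controls fell into 3 high and 2 low values, and CR animals spanned nearly the same range. The difference was -0.25 ± 0.37 (SE, 95% interval -1.02 to 0.53), and -0.037 without control replicate 4 or -0.58 without control replicate 1. RPL24 had a median r of -0.23 with the other members. Its strongest opposite partner was the chosen probe set of RPL29 (r = -0.72), which the other probe sets of RPL29 did not follow.

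**Figure D5:**
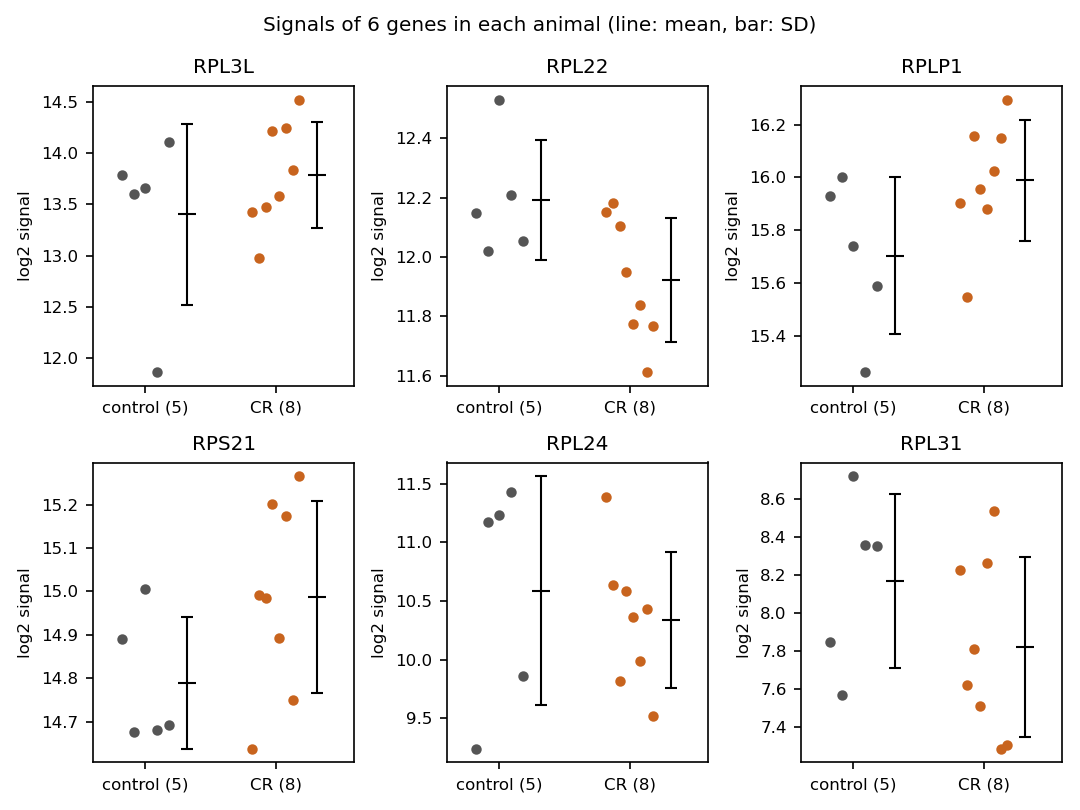
Log2 signals of RPL3L, RPL22, RPLP1, RPS21, RPL24 and RPL31 (y axes, scaled separately) in each of the 5 control (grey) and 8 CR animals (orange), with the mean and SD beside the points. The groups overlap in all 6 panels, control replicate 4 lies alone at 11.86 in RPL3L, and RPL24 splits into high and low animals in the controls.

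The differences of the other tested large subunit genes ran from -0.085 to 0.22, and their intervals included 0. RPL32 differed by 0.22 ± 0.15 (12.26 to 12.69 in controls and 12.32 to 13.07 in CR) and RPL29 by 0.16 ± 0.14 (14.44 to 14.92 and 14.59 to 15.10), or 0.093 without control replicate 4. RPL23, which can also bind the p53 regulator MDM2, differed by -0.085 ± 0.21, and RPL10A, part of the stalk that guides spent transfer RNA out, by -0.018 ± 0.13. RPL7, the member with the smallest spread, differed by 0.067 ± 0.12. The remaining RPL8, RPL9, RPL12, RPL13, RPL15, RPL30 and RPL35A lay between 0.0057 and 0.094.

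In the small subunit, RPS21 had the largest difference among tested genes. Its log2 signal was 14.89, 14.68, 15.01, 14.68 and 14.69 in control replicates 1 to 5 and ran from 14.64 to 15.27 in CR, with a median of 14.99. The CR range enclosed all 5 controls, and 6 of the 8 CR values exceeded the mean of the controls. The difference was 0.20 ± 0.14 (SE, 95% interval -0.10 to 0.50), or 1.15-fold.

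RPS6, the protein that S6 kinase phosphorylates when mTORC1 is active, differed by 0.16 ± 0.14 and ran from 14.91 to 15.37 in controls and from 15.13 to 15.65 in CR. Control replicate 4 was the lowest animal here, and the difference was 0.084 without it. RPS3, at the entry of the message channel, differed by 0.12 ± 0.15, and by 0.036 without control replicate 4. RPS28 differed by 0.15 ± 0.13, or 0.085 without control replicate 4, RPS15 by 0.16 ± 0.16 and RPS18 by 0.10 ± 0.12. RPS10, a protein that is ubiquitylated on stalled ribosomes, differed by -0.069 ± 0.12 and RPS7 by -0.019 ± 0.13. RPS9 and RPS26 gave 0.060 and 0.0010. RPS16, from a dim probe set, differed by 0.14 ± 0.31, with an SD of 0.53.

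FAU and RACK1 encode small subunit proteins under names outside the rule. FAU differed by 0.082 ± 0.13 and RACK1 by 0.090 ± 0.15. Neither passed limma's test.

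For 3 genes every probe set fell below the filter, and their values are from a fit without it. RPS19, the gene most often mutated in Diamond-Blackfan anaemia, had log2 signals of 3.96 to 6.33 in controls and 4.52 to 6.96 in CR and differed by 1.03 ± 0.59 (95% interval -0.21 to 2.28). RPL5, which carries the smallest ribosomal RNA into the large subunit, differed by -0.69 ± 0.66, and RPS27L, a p53-induced paralogue of RPS27, by 0.099 ± 0.43. At such signals the SD between animals was 0.68 to 1.12, above that of every tested member but RPL24, and no order can be read from these values.

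Different probe sets of a gene often disagreed. Of 13 genes with more than 1 tested probe set, 7 had differences of both signs, RPS6 (0.16 and -0.057) and RPL29 (0.16, -0.18 and -0.15) among them. The 16 tested probe sets that were not the brightest of their gene correlated with it with r from -0.58 to 0.87 and a median of 0.074. By Affymetrix naming, 10 of the 36 chosen probe sets match several transcripts of a family and 4 share probes with other sequences. Ribosomal proteins have many processed pseudogenes, so signal of these 14 is not certain to come from the named gene alone.

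Genes that build or drive ribosomes were also without a call. Of 28 translation factor genes tested, 21 (75%) had a difference above 0 (median 0.074), against 48.1% of all probe sets. The share was 51.6% in the brightest 25% of probe sets and 72.9% in the brightest 2%. Many of the 28 were dimmer than the brightest 2%, EEF2 (mean log2 signal 9.11) and EIF4E (7.78) among them, so neither share is matched in brightness. The count above 0 of the 28 was 18 without control replicate 4 and 23 after quantile normalization, where 50% of all probe sets lay above 0. EIF2S2, a subunit of the initiation factor that brings the first transfer RNA, differed by 0.37 ± 0.16 (unadjusted 0.0296 and adjusted p = 0.999 in limma), ETF1, the release factor, by 0.34 ± 0.17, EIF3H by -0.11 ± 0.15 and EIF2S3 by -0.10 ± 0.26. Of 36 ribosome assembly genes tested, 24 (66.7%) lay above 0 (median 0.082), 23 without control replicate 4 and 25 after quantile normalization. UBTF and RRN3, both needed for transcription of ribosomal RNA genes, differed by 0.39 ± 0.23 and -0.51 ± 0.31, the assembly kinase gene RIOK1 by 0.52 ± 0.32 and SBDS by -0.16 ± 0.17.

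Of 24 genes of the mTORC1 and S6 kinase pathway tested, 17 (70.8%) lay above 0 (median 0.12), against 48.1% of all probe sets. The count was 14 without control replicate 4 (median 0.022) and 17 after quantile normalization (median 0.12). RPS6KB2, an S6 kinase, differed by 0.48 ± 0.21 (unadjusted 0.0339 and adjusted p = 0.999 in limma) and DEPTOR, an inhibitor of mTOR, by 0.43 ± 0.25. RRAGB, a GTPase that places mTORC1 on lysosomes, differed by -0.39 ± 0.19 (unadjusted 0.0498 and adjusted p = 0.999 in limma) and TSC1, which restrains the complex, by -0.11 ± 0.14.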

How the data were processed

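The deposited values are intensity values on a linear scale, 1 per probe set and array, made by the authors using MAS5 (named in the submitters' processing notes, without a version). Their 2% trimmed mean was 500.04 to 500.05 on every array. The 99 control probe sets were removed, signals were floored at 1 (137 values) and log2 transformed, and the brighter 50% of probe sets (26383, mean signal of at least 107) entered a two-sided linear model test with a mean-variance trend (limma 3.58.1, R 4.3.3). The threshold was a Benjamini-Hochberg adjusted p under 0.05 over all of them. Names came from the platform annotation, where 24956 probe sets had 1 symbol, 361 several and 27449 none; the 36 member symbols equal the current RefSeq ones. Correlations used 100000 permutations. Figures were drawn with matplotlib 3.10.9. The number of arrays limits the precision. Array dates were not used here.

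Genes were named by a rule: the 6 lowest p in each direction, genes with known roles, the 3 largest and 3 smallest spreads, all untested members, and up to 2 genes per direction in each pathway list. RPL15, RPS15 and other members are given as values so that every member is accounted for; FAU, RACK1 and RPL22L1 also lie outside the rule and were added after seeing values. The members, lists and tests were chosen with earlier results of these data known. The test was checked on simulated data. Single Schwann cell markers and the sum without PMP22 were added after seeing the data. Alternatives covered normalization, offset, filter, variance model, array weights, RNA quality ratios (3-prime over 5-prime signal of GAPDH and actin controls), the replicate block, the probe set per gene, an exact rank-sum test and each animal left out.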

Additional observations from a re-analysis of the deposited data

Results flagged for a closer look

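Across 23 named genes and 3 subunit values, each diet was searched for an animal set apart from the others by a wide gap. This gave 3 in 52 groups, where chance gives about 1 in 20, or 2.6. RPL3L in control replicate 4 was 11.86, and the next lowest control was 13.61. RPL4 in control replicate 5 was 8.54, and the next lowest control was 9.04. RPS18 in CR replicate 3 was 15.87, and the next highest CR animal was 15.70.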

How the results depend on the processing

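No member passed under any setting run. The medians of both subunits and the value of large minus small stayed within 1 SD between animals of their main values. That SD (0.11 large, 0.14 small and 0.11 large minus small) exceeds the main values in size, so a change of sign can lie within it. The large subunit median after quantile normalization, -0.013, was such a case. Over all probe sets 0 passed, and 1 passed without control replicate 1 or control replicate 5 (range 0 to 1 with an animal left out). The number of members above 0 went from 26 to 16 after quantile normalization and to 17 of 27 with plain probe sets, settings applied to this count after seeing the data, and ranged from 21 (without control replicate 4) to 29 (without control replicate 3). Medians ranged from 0.016 to 0.094 in the large and 0.036 to 0.17 in the small subunit with an animal left out. Of 177 values of named members under other settings 11 turned in direction. They were, with the RNA quality ratios, RPL23 0.061, RPL24 0.0079, RPS16 -0.039 and RPS7 0.060; with the replicate block, RPL10A 0.015, RPS16 -0.10 and RPS7 0.025; after quantile normalization, RPLP2 -0.0072 and RPS18 -0.031; and averaging all probe sets of a gene, RPL29 -0.055 and RPS28 -0.21. The cause was not tested. With an animal left out, RPL10A ranged from -0.058 to 0.056, RPL23 from -0.15 to 0.037, RPL3L from -0.0043 to 0.56 and RPS7 from -0.086 to 0.041. Same-numbered control and CR animals did not deviate together over all tested probe sets (r from -0.20 to 0.020). Such an r cannot show whether a pairing acts weakly or on few genes. The replicate block cannot use CR replicates 6 to 8 for the diet difference, since no control has these numbers. Its values, here and above, therefore compare CR replicates 1 to 5 with the 5 controls. With the replicate block 0 members were called, 23 lay above 0, the medians were 0.040 and 0.068, and large minus small was -0.0096. The planned comparisons of RPL3L, RPS27L, RPL10L and RPL39L with their partners were not run, since RPL3, RPS27, RPL10 and RPL39 were not analysed here. Dim signals limit RPL5, RPS19 and RPS27L.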

Other observations

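The second brightest probe set of RPL35A varied over nearly 3 log2 units, from 13.61 to 16.29, with a median of 14.67, while the brightest one kept within 15.17 to 15.70. Over the 13 animals it ran opposite to the brightest one (r = -0.56) and with RPL24. This pair was picked after its values were seen, and its r of 0.80 (permutation p = 0.00162) and rho of 0.76 (permutation p = 0.00354) are given as values. The r was 0.75 in the 8 CR animals and 0.79 without control replicates 1 and 4. RPL24 ran opposite to the fibre markers (r = -0.61, permutation p = 0.0265, adjusted 0.108 over 27 relations). The rho was -0.68 (permutation p = 0.0135), and r was -0.35 without control replicates 4 and 3. Leaving out these animals narrows the range of the marker sum, and the rho was not computed without them. The lower r therefore does not show what the relation rests on.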
